A study of Mus musculus with 6 samples.

Results

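The 26S proteasome, the complex that degrades proteins tagged with ubiquitin, was described through the transcripts of its subunits and assembly factors in mouse glioblastoma neurosphere cultures. The genes were chosen by symbol: every row whose name starts with Psm, a letter from a to g and a digit, leaving out the immune subunits Psmb8 and Psmb9, plus Pomp and Nfe2l1. This gave 48 of the 13069 genes in the deposited table. They comprised 31 obligate subunits (14 of the 20S core and 17 of the 19S regulatory particle), the immune subunit Psmb10, 8 assembly factors, 5 activators or inhibitors of the core, and the transcription factor Nfe2l1. Adrm1 and Shfm1, also 19S subunits, do not match the symbol rule. They are not among the 31, in any sum, ratio or ranking of these, and are counted with the proteasome-associated genes. The other 2 rows, Psmc3ip and Psme2b, match the symbol rule but belong to another protein and to a retrocopy. The rule itself uses symbols and no measured value.

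The design set 3 libraries labelled as ATRX knockout (ATRX KO) against 3 labelled as ATRX wild type (ATRX WT), and the series title asks about passage through the cell cycle when ATRX, a chromatin remodeller, is lost. All tumours were started by injecting Sleeping Beauty transposon plasmids for NRAS and a short hairpin against p53 into the ventricles of newborn C57BL/6 or FVB mice, so both groups carry these. The growth protocol names a short hairpin against ATRX as present in some tumours and not in others, while the genotype label says knockout, and the strain of each line is not given in the labels. Every library of a genotype bears 1 line code (C54B for ATRX KO, C39E for ATRX WT), so a difference by genotype and one by line cannot be told apart. The cells were kept as primary cultures in a stem-cell medium for neural cells, supplemented with FGF, EGF, N-2 and B-27.

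In the 20S core, stacked rings of alpha and beta subunits enclose a chamber where PSMB6, PSMB7 and PSMB5 carry the beta1, beta2 and beta5 protease sites. The 19S particle binds ubiquitin chains, unfolds the substrate with a ring of ATPases (PSMC1 to PSMC6) and strips the ubiquitin with PSMD14. NFE2L1, a membrane-bound factor that is cut free when proteasome activity falls short, drives subunit genes together, while interferon signalling replaces the catalytic subunits with PSMB9, PSMB10 and PSMB8 and induces the PSME1 and PSME2 cap.

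Reads in the table ranged from 22177228 to 32477269 over the ATRX KO libraries and from 34966108 to 38039847 over those of ATRX WT, and the member with the fewest reads apart from Psme2b, Psmg4, still held 298 in its shallowest library. Values are RPKM (reads divided by gene length in kilobases and by library size), and rose and fell are used of ATRX KO relative to ATRX WT where limma's adjusted p, over all 12201 genes tested, was under 0.05. The lines differ across the whole transcriptome: 89.5% of all tested genes passed, 43.6% higher and 45.9% lower in ATRX KO. Among the members, ATRX KO replicate 1 was the highest library of its group for 28 of 48. Atrx itself stood at 14.1, 16.6 and 17.1 RPKM in ATRX KO and 22.3, 22.7 and 21.6 in ATRX WT, and its log2 difference was -0.48 (limma adjusted p = 0.00013). Neural stem and glial markers summed to 76.2 to 82.5 RPKM in ATRX KO against 3350 to 3410 in ATRX WT, with 7 of 7 tested members lower and Olig1 at 0 reads in every ATRX KO library. Fabp7 made up most of the ATRX WT sum (2760 against 0.143 RPKM in ATRX KO), whereas Nes, Sox2 and Slc1a3 were still present in ATRX KO at 28.3, 19.8 and 30.8 RPKM, or 31%, 24.7% and 18.4% of ATRX WT. Mesenchymal and fibroblast markers summed to 1200 to 1380 RPKM in ATRX KO against 1.67 to 1.81 in ATRX WT, with 7 of 7 tested members higher, so the ATRX KO line held little of part of the markers of the labelled neural cultures. Col3a1, Col1a1 and Postn, at 725, 266 and 210 RPKM, made up most of the ATRX KO sum of mesenchymal markers. Col1a2, below the filter, was at 0.635 against 0.0555 RPKM, and Acta2 at 2.14 against 0.811. Of microglia and macrophage markers 2 of 7 were in the table, both higher (summed 30.6 to 35.1 against 5.6 to 6.36 RPKM), of endothelial markers 2 of 5 were tested, both higher, while Kdr, below the filter, was at 0.253 against 0.304 RPKM (summed over the 3, 14.5 to 16.5 against 0.491 to 0.748), and of lymphocyte markers 1 of 4, Lck, was higher (2.63 to 3.27 against 2.05 to 2.19). In bulk RNA such as this, fewer cells of a type and less RNA per cell cannot be told apart, and the part of these marker differences in the results that follow was not tested.

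Nfe2l1, the factor that drives proteasome genes, was the member with the largest rise. The ATRX KO libraries held 126, 124 and 120 RPKM, and the ATRX WT libraries 54.3, 55.3 and 54.6 RPKM (here and throughout, in the order of replicates 1, 2 and 3). The groups lay far apart, with the highest ATRX WT library below the lowest ATRX KO library. Mean levels were 123 ± 3.07 against 54.7 ± 0.527 RPKM (SD, n = 3 each), 226% of ATRX WT (log2 difference 1.17, SE 0.027, limma adjusted p = 6.5e-10). Nfe2l1 (ENSMUSG00000038615.17) lies on chromosome 11 from 96817414 to 96829968 in GRCm38. The 49 expressed genes within 2.5 Mb on either side of it had a median log2 difference of 0.15.

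The subunit genes changed in both directions. NFE2L1 protein was not measured here, and a link between Nfe2l1 RNA and the subunit transcripts was not tested. Of all 48 genes, 18 rose, 20 fell and 10 did not pass the test, so 38 of 48 were called where 89.5% of all tested genes were. The groups did not overlap for the same number, 18 above and 20 below, where 90.5% of all tested genes did not overlap. The median log2 difference was 0.01 for the 48 genes and -0.02 for all tested genes. Changes past log2 0.5 were fewer: 10 members rose and 3 fell by that much, where 29.1% of all tested genes rose and 31.1% fell by as much (60.2% in either direction). That balance turned round under the other scalings described next, with 5 up and 7 down when libraries were divided by their reads in the table and 7 up and 9 down after quantile normalization. Only Nfe2l1 and Psme1 rose by at least 1 and only Psmc3ip fell by at least 1, beside 17.2% and 19.6% of all tested genes (36.8% in either direction). From lower to upper quartile the members spanned -0.21 to 0.29, against -0.72 to 0.64 for all tested genes. Proteasome transcripts are abundant, and among the 1171 tested genes of mean log2 RPKM of at least 6 89.8% were called and 51.5% were also past log2 0.5, where 7 of the 33 members in that range were past it. The share past log2 1 was 21.3%, with 1 such member. The median size of a difference, without its sign, was 0.24 for the 48 members and 0.52 for those abundant genes.

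Library scaling bears on these counts and on every smaller value. The library sizes the authors divided by were 0.932 to 0.935 of the reads counted in the ATRX KO libraries and 1.07 of those counted in the ATRX WT libraries. When each library was divided by its reads in the table (total-read scaling), the median of all genes shifted by -0.20 and 14 members rose and 28 fell, and quantile normalization gave 12 and 29. The medians of members and of all genes parted after quantile normalization, at -0.23 and -0.04, and were -0.19 and -0.22 under total-read scaling. Of the 18 that rose, 11 rose under both other scalings as well: Nfe2l1, Psmb10, Psmb5, Psmc2, Psmd2, Psmd3, Psmd8, Psme1, Psme2, Psmg1 and Psmg3. All 20 members that fell also fell under both. Psma7, Psmc6, Psmd4 and Pomp lost the call or changed sign under total-read scaling, and Psmd7, Psmd11 and Psme3 lost it after quantile normalization.

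**Figure D1:**
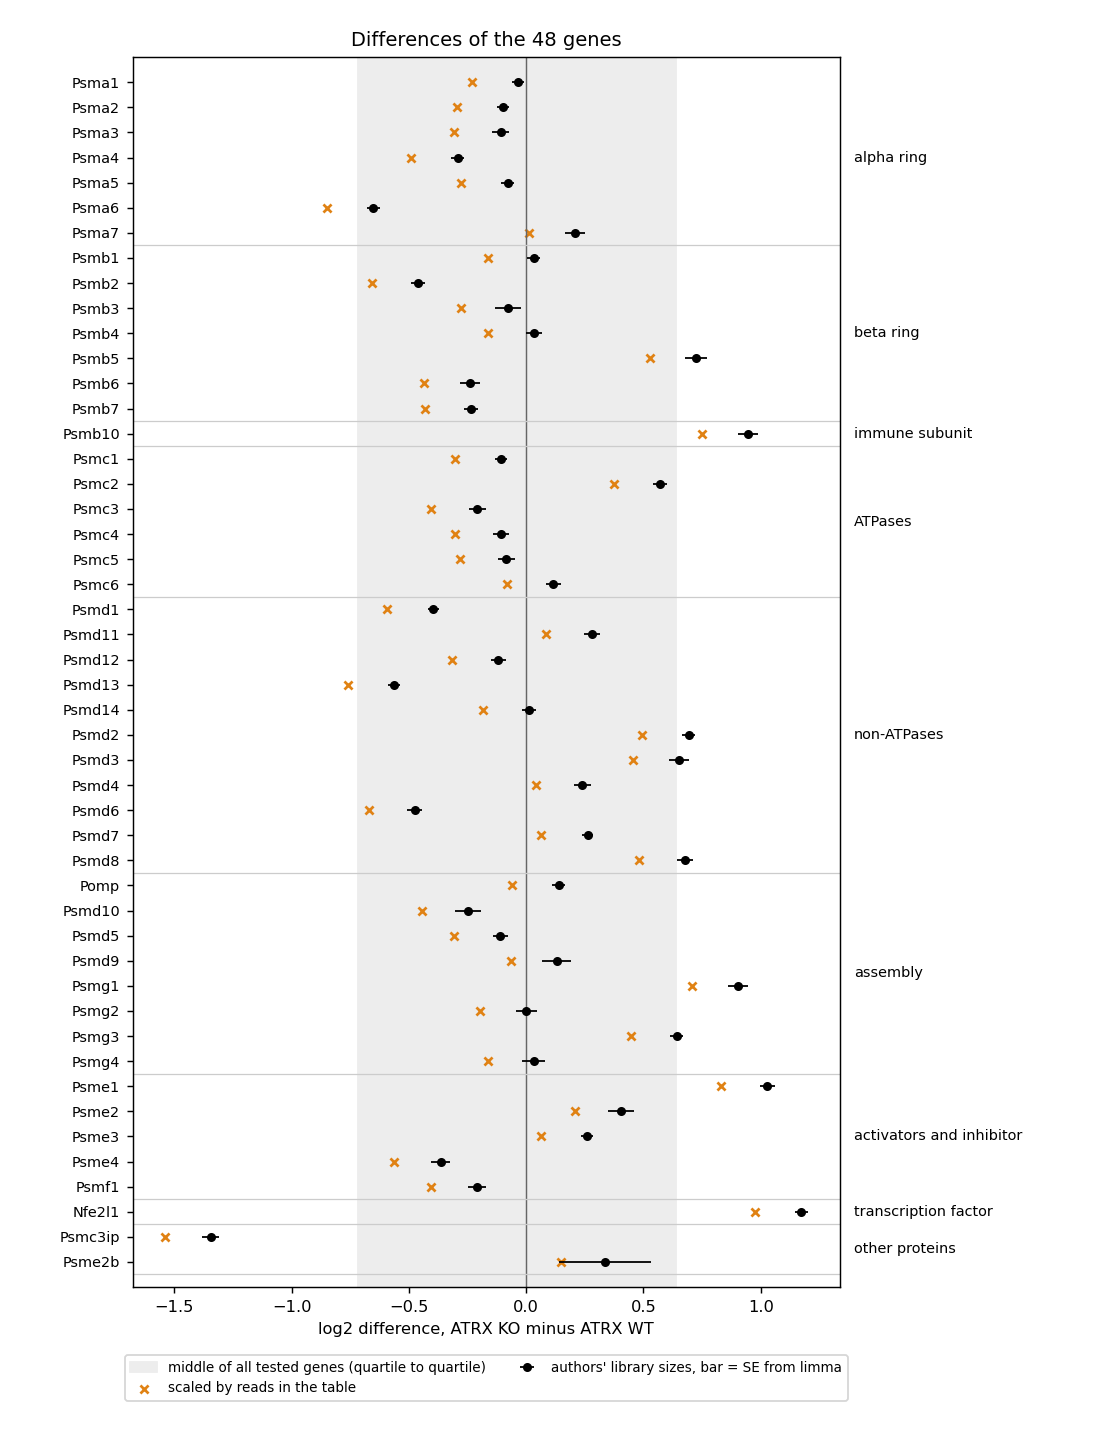
Log2 difference, ATRX KO minus ATRX WT, for the 48 genes, grouped by role. Black points are the differences with the authors' library sizes and bars are limma's SE (n = 3 against 3). Orange crosses are the differences under total-read scaling, where Pomp, Psmc6, Psmb1, Psmb4 and other small differences cross 0. The grey band runs from -0.72 to 0.64, the quartiles of all tested genes, with Nfe2l1, Psme1, Psmb10, Psmg1 and Psmb5 furthest above it and Psmc3ip below it.

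The outer alpha rings, which gate entry to the core, held less transcript in ATRX KO. Of the 7 alpha genes 5 fell, Psma7 rose and Psma1 did not pass (median log2 difference -0.10), and under both other scalings 6 fell and none rose. With the authors' library sizes 45.9% of all tested genes fell and 43.6% rose. The summed level of the ring was 911 ± 19.4 RPKM in ATRX KO against 1060 ± 2.99 in ATRX WT (SD, n = 3 each), or 86.2% of the ATRX WT level. Psma6 alone was at 191 against 300 RPKM in this sum, and a sum without it was not computed. Psma6, the alpha1 subunit, was at 196, 188 and 190 RPKM in ATRX KO and 305, 298 and 298 RPKM in ATRX WT. It was the most abundant obligate subunit transcript of ATRX WT, and every ATRX KO library lay below 200 RPKM. Psma6 fell to 63.7% of ATRX WT (log2 difference -0.65, SE 0.028, limma adjusted p = 3.1e-08).

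Psma4, the alpha3 subunit whose tail closes the gate, stood at 127, 126 and 131 RPKM in ATRX KO and 156, 160 and 154 RPKM in ATRX WT. The groups did not overlap and Psma4 fell by 0.29 (SE 0.027, limma adjusted p = 7.4e-06). Psma7, the alpha4 subunit, stood at 144, 128 and 133 RPKM in ATRX KO and 117, 115 and 119 in ATRX WT. It was higher by 0.21 (SE 0.042, limma adjusted p = 0.0014) with the authors' library sizes, by 0.01 (adjusted p = 0.8) under total-read scaling and by -0.03 (adjusted p = 0.48) after quantile normalization. Psma2, Psma3 and Psma5 fell by 0.08 to 0.11. The call of Psma3 was lost without ATRX WT replicate 2, and that of Psma5 without ATRX KO replicate 2, ATRX WT replicate 2 or ATRX WT replicate 3.

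The inner beta rings showed 1 member apart from the rest. Of the 7 constitutive beta genes Psmb5 rose, Psmb2, Psmb6 and Psmb7 fell, and Psmb1, Psmb3 and Psmb4 did not pass (median log2 difference -0.08), while under total-read scaling or after quantile normalization the other 6 fell. With the authors' library sizes 43.6% of all tested genes rose and 45.9% fell. Psmb5, the beta5 subunit with chymotrypsin-like activity and the main target of bortezomib, was at 63.3, 59.3 and 57.2 RPKM in ATRX KO and 36.5, 34.4 and 37.9 RPKM in ATRX WT. No library of either group came within the range of the other. The means were 59.9 ± 3.06 and 36.2 ± 1.75 RPKM (SD, n = 3 each), a log2 difference of 0.73 (SE 0.047, limma adjusted p = 5.6e-07). Psmb5 (ENSMUSG00000022193.7, chromosome 14, 54614119 to 54618022, GRCm38) was nevertheless the lowest of the 31 obligate subunit transcripts in both lines.

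Psmb2, the non-catalytic beta4 subunit, was at 174, 164 and 166 RPKM in ATRX KO and 227, 230 and 236 RPKM in ATRX WT. Its groups were well separated, and it fell by 0.46 (SE 0.031, limma adjusted p = 7.1e-07). The 31 expressed genes within 2.5 Mb of Psmb2 on chromosome 4 had a median log2 difference of -0.45, close to its own value, and the part of this neighbourhood in the fall of Psmb2 was not tested. Psmb6, the beta1 subunit that cuts after acidic residues, was at 176, 156 and 163 RPKM in ATRX KO and 195, 192 and 197 in ATRX WT. The ATRX KO libraries spread more widely but stayed below ATRX WT, and Psmb6 fell by 0.24 (SE 0.044, limma adjusted p = 0.00069). Psmb3, the beta3 subunit, stood at 99.8 against 105 RPKM and did not pass (log2 difference -0.08, limma adjusted p = 0.21), but was lower without ATRX KO replicate 1 (-0.15, adjusted p = 0.0032). Psmb7, the beta2 subunit with trypsin-like activity, averaged 191 ± 4.43 and 225 ± 4.17 RPKM and fell by 0.23 (limma adjusted p = 5.4e-05). Its exons overlap those of Nek6 on the opposite strand by 405 bases.

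Promoters of Psmb5, Psmb6 and Psme4 are shown because each holds the letters TGACNNNGC, the core of the antioxidant response element that NFE2L1 binds, while the transcripts went in opposite directions. Each runs from 250 bases before to 50 after the gene's start in RefSeq (GRCm38.p6), and capitals mark the match, which in Psme4 reads on the reverse strand. Psmb5 is chr14:54617946-54618245 on the minus strand with the match starting 47 bases before the start. Psmb6 is chr11:70525107-70525406 on the plus strand, 9 bases before, and Psme4 is chr11:30771525-30771824 on the plus strand, 7 bases before.
Psmb5: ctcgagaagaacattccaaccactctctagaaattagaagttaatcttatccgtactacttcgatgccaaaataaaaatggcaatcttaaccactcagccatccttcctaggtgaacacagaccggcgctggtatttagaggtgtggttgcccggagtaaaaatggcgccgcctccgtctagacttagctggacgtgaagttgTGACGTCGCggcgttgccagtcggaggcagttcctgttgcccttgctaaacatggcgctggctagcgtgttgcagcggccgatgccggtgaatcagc
Psmb6: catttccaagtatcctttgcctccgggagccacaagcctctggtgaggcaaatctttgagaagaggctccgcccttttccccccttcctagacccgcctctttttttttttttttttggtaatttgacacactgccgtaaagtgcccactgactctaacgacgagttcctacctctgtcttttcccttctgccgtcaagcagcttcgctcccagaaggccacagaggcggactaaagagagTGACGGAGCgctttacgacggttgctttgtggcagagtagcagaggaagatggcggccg
Psme4: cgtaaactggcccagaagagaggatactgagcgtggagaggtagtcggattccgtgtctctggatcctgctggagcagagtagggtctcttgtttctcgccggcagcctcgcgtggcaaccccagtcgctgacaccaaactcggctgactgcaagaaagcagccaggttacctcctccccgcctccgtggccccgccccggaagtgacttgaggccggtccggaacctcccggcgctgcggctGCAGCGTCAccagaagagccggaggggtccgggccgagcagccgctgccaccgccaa
Psmb5 rose while Psmb6 and Psme4 fell. Of the 48 genes, 41 had a promoter in the RefSeq table, and 6 of these (14.6%) held TGACNNNGC on either strand: Psmb5, Psmb6, Psmc6, Psmd9, Psmd12 and Psme4. The share was 17% among 9945 genes of the deposited table and 14% among all 27025 genes listed. The CCAAT box, bound by NF-Y, was in 14 of 41 member promoters (34.1%) against 43.2% of the genes of the deposited table. Matches were searched on both strands and counted whether or not they overlapped another motif, and a match is a string of letters, not a measured site.

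The immune beta2 subunit Psmb10, which replaces PSMB7 after interferon, was at 25.1, 24 and 26.2 RPKM in ATRX KO and 12.8, 12.7 and 13.6 RPKM in ATRX WT. The groups were separated by more than 10 RPKM. It rose by 0.95 (SE 0.044, limma adjusted p = 5.1e-08), to 193% of the ATRX WT level. Psmb10 (ENSMUSG00000031897.9) lies on chromosome 8 from 105935735 to 105938444 in GRCm38. Within a library, Psmb10 amounted to 13, 12.3 and 14% of Psmb7 in ATRX KO and 5.78, 5.65 and 5.91% in ATRX WT. The ratio was 2.27 times as high in ATRX KO, with no overlap (exact permutation test, two-sided, p = 0.1, the smallest that 3 against 3 libraries allow, adjusted p = 0.111 over 10 ratios). Ratios within a library do not depend on the size that the library is divided by. They can change with quantile normalization, under which no ratio was computed.

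The other immune subunits did not share this pattern. Psmb8, the immune beta5 subunit, rose by 0.63 (8.9 ± 0.617 against 5.74 ± 0.385 RPKM, limma adjusted p = 2.4e-05), while Psmb9, the immune beta1 subunit, fell by 1.06 (2.17 ± 0.2 against 4.53 ± 0.609 RPKM, limma adjusted p = 1.9e-05). Psmb9 rests on few reads, 35 to 56 in the ATRX KO libraries and 123 to 152 in those of ATRX WT. The ratios of Psmb8 and Psmb9 were chosen after their values were seen. Psmb8 amounted to 12.9, 15.6 and 16.2% of Psmb5 in ATRX KO and 15.7, 15.6 and 16.2% in ATRX WT, overlapping groups (exact permutation p = 0.4, adjusted p = 0.4). Psmb9 amounted to 1.35, 1.27 and 1.33% of Psmb6 in ATRX KO and 2.53, 2 and 2.45% in ATRX WT, so at this position the immune share was lower in every ATRX KO library (exact permutation p = 0.1, adjusted p = 0.111). At the beta2, beta5 and beta1 positions the immune to constitutive ratio in ATRX KO was thus 2.27, 0.942 and 0.565 times that of ATRX WT.

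**Figure D2:**
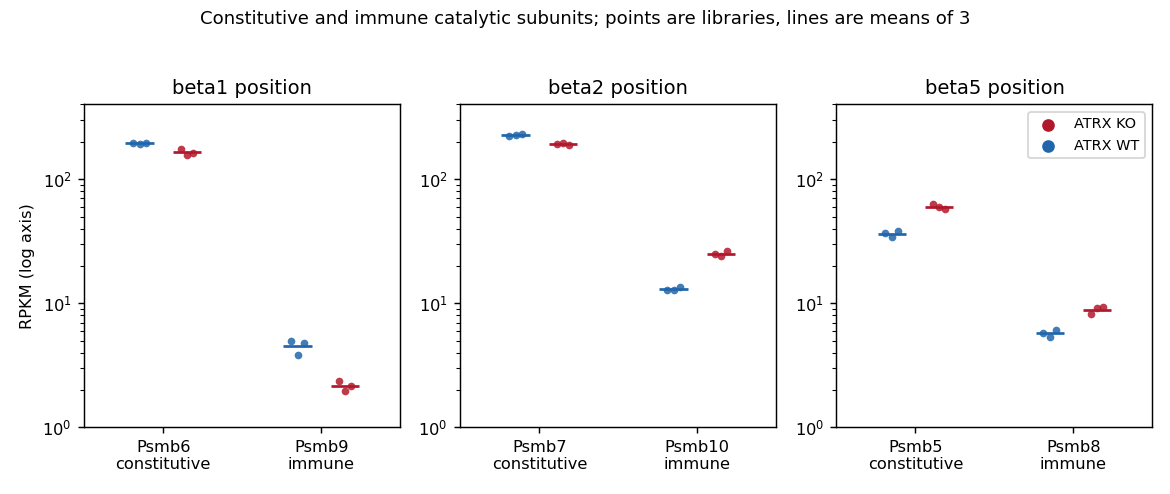
RPKM (log axis) of the constitutive and immune subunit at each catalytic position. Points are libraries and lines are means of 3. Psmb10 and Psmb8 are higher and Psmb9 lower in ATRX KO, while of the constitutive subunits Psmb5 is higher and Psmb6 and Psmb7 are lower, and every immune subunit lies below its constitutive counterpart in all 6 libraries.

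Psmc2 stood apart among the 6 ATPases of the 19S base, the motor that unfolds substrates. Psmc2 and Psmc6 rose, Psmc1, Psmc3 and Psmc4 fell and Psmc5 did not pass (median log2 difference -0.10), and under total-read scaling or after quantile normalization Psmc2 alone rose. Beside these counts, 43.6% of all tested genes rose and 45.9% fell with the authors' library sizes. Psmc2, the Rpt1 subunit, was at 147, 140 and 139 RPKM in ATRX KO and 97.4, 95.4 and 93.6 in ATRX WT. It was the least abundant ATPase transcript of ATRX WT and it rose by 0.57 (SE 0.031, limma adjusted p = 1.6e-07). Psmc3, the Rpt5 subunit, was at 119, 110 and 111 RPKM in ATRX KO and 130, 129 and 134 in ATRX WT. It fell by 0.21 (SE 0.037, limma adjusted p = 0.00058), and shares 215 exonic bases with Slc39a13 on the opposite strand.

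Psmc4, the Rpt3 subunit, was at 111, 103 and 107 RPKM in ATRX KO and 113, 114 and 117 in ATRX WT, groups that come close without overlapping. It fell by 0.11 (SE 0.033, limma adjusted p = 0.014), a call lost without ATRX WT replicate 3 (adjusted p = 0.055). Psmc5, the Rpt6 subunit, averaged 119 against 126 RPKM and did not pass (log2 difference -0.08, limma adjusted p = 0.056), but was lower without ATRX KO replicate 1 (-0.12, adjusted p = 0.0034). Psmc6, the Rpt4 subunit, was at 168, 175 and 180 RPKM in ATRX KO and 164, 160 and 157 in ATRX WT. It was higher by 0.12 (SE 0.033, limma adjusted p = 0.0095) with the authors' library sizes, but by -0.08 (adjusted p = 0.051) under total-read scaling and by -0.16 (adjusted p = 0.0019) after quantile normalization.

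The non-ATPase subunits of the 19S particle, the scaffold, ubiquitin receptors and lid, moved in both directions. Past log2 0.5, 3 rose and 1 fell, where 29.1% of all tested genes rose and 31.1% fell by as much. None was past 1, beside 17.2% of all tested genes that rose and 19.6% that fell by that much. The median size of a difference, without its sign, was 0.40, against 0.52 for tested genes of mean log2 RPKM of at least 6. Of the 11, 6 rose (Psmd2, Psmd3, Psmd4, Psmd7, Psmd8 and Psmd11), 4 fell (Psmd1, Psmd6, Psmd12 and Psmd13) and Psmd14 did not pass, with a median log2 difference of 0.24, where 43.6% of all tested genes rose and 45.9% fell. Under total-read scaling 5 rose and 5 fell, and after quantile normalization 3 and 5. Psmd2, the Rpn1 scaffold that docks ubiquitin-like domains, was at 127, 124 and 123 RPKM in ATRX KO and 74.9, 77.9 and 78.4 in ATRX WT. Its libraries agreed within each group far more closely than the groups did, and it rose by 0.69 (SE 0.028, limma adjusted p = 2.1e-08). Its 28 expressed neighbours within 2.5 Mb on chromosome 16 had a median log2 difference of 0.45, and the part of that neighbourhood in the rise was not tested.

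Psmd8, the lid subunit Rpn12, was at 168, 155 and 157 RPKM in ATRX KO and 99.9, 98.6 and 102 in ATRX WT. It had the highest level in ATRX KO among the 11 non-ATPases counted here, which leave out Shfm1, and rose by 0.68 (SE 0.036, limma adjusted p = 1.3e-07). Psmd3, the lid subunit Rpn3, rose by 0.65 (138 against 87.8 RPKM, limma adjusted p = 4.4e-07). Another lid subunit, Psmd13 (Rpn9), went the other way, at 68.4, 67.3 and 69 RPKM in ATRX KO and 99.4, 101 and 102 in ATRX WT. Psmd13 fell by 0.56 (SE 0.025, limma adjusted p = 3.7e-08), and its exons overlap those of Sirt3 on the opposite strand by 342 bases, where the strand setting of the counting is not given in the sources used here.

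Psmd6, the lid subunit Rpn7, was at 72.5, 72.5 and 77.3 RPKM in ATRX KO and 103, 102 and 103 in ATRX WT. The groups were separated by more than 20 RPKM and Psmd6 fell by 0.47 (SE 0.031, limma adjusted p = 6.2e-07). All 4 of its expressed neighbours within 2.5 Mb on chromosome 14 fell too, with a median log2 difference of -0.56, and the part of that neighbourhood was not tested. Psmd1, the large Rpn2 scaffold, fell by 0.40 (98.8 against 130 RPKM, limma adjusted p = 3.4e-07), so the paired scaffolds Psmd1 and Psmd2 changed in opposite directions. Psmd14, the deubiquitinase of the lid, stood at 134 against 133 RPKM (log2 difference 0.01, limma adjusted p = 0.73).

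**Figure D3:**
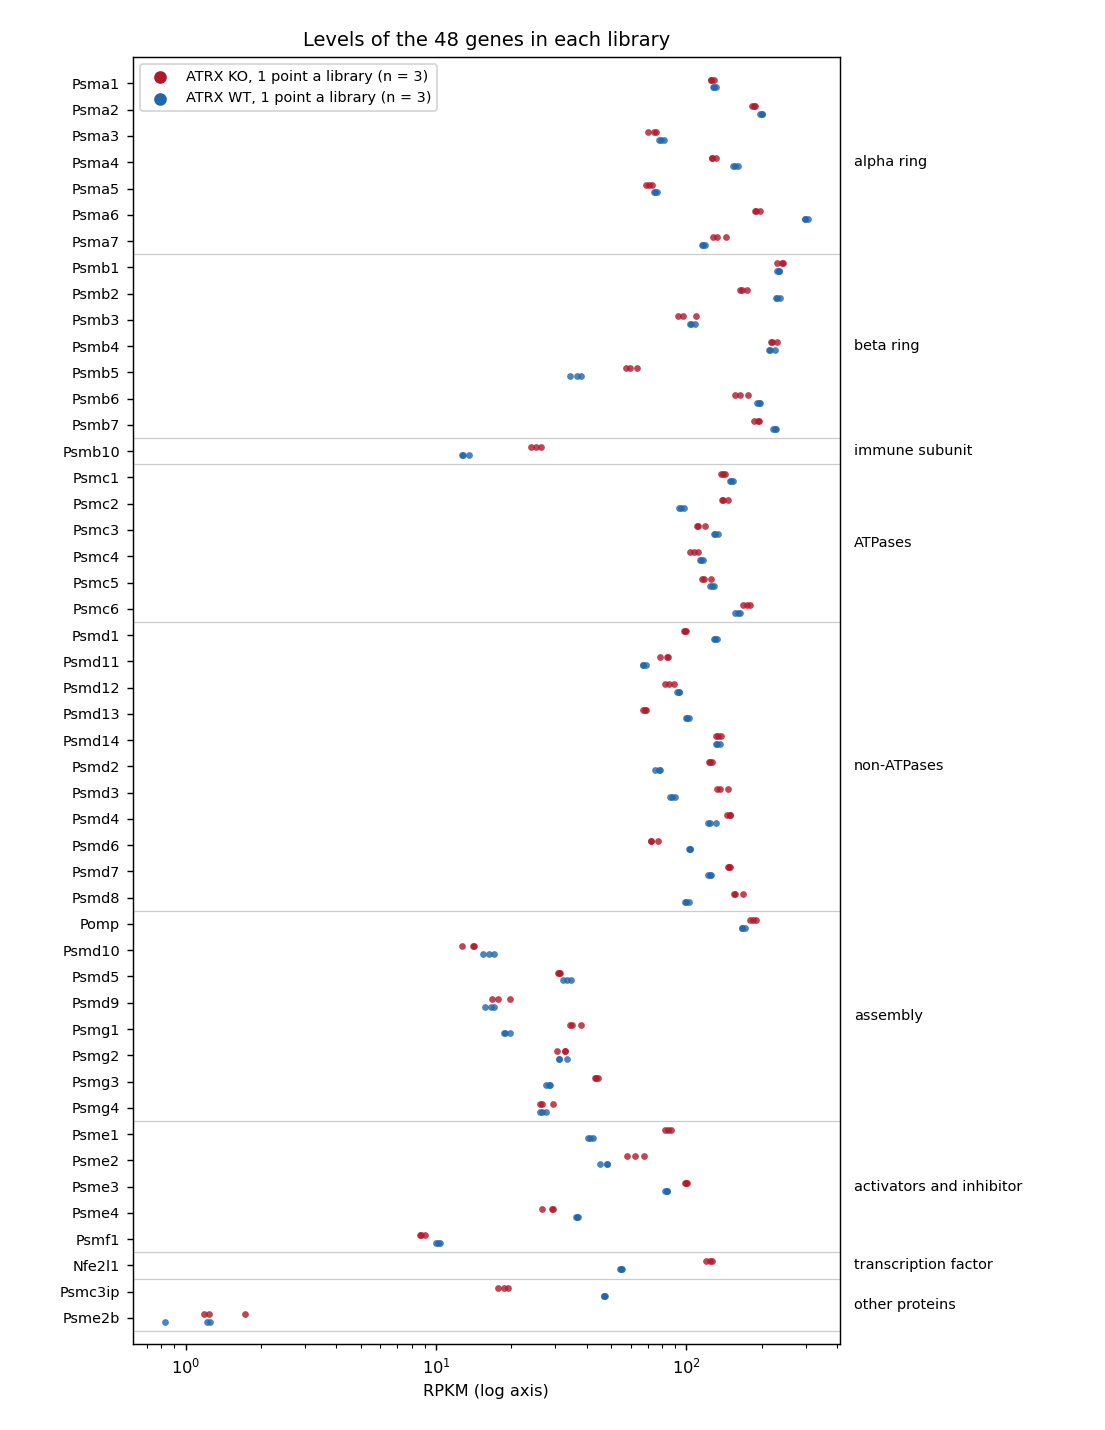
RPKM (log axis) of the 48 genes in each of the 6 libraries, grouped by role, with red points for ATRX KO and blue points for ATRX WT. Most obligate subunits sit between 50 and 300 RPKM, assembly factors other than Pomp lie lower, and the libraries of a group cluster tightly for Psma6, Psmd2, Psmd13, Psme1 and Nfe2l1, where the groups are apart.

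The levels of the 31 obligate subunits, which the complex holds in fixed proportion, were less uneven in ATRX KO as a whole but not in every ring. The coefficient of variation across the 31 transcripts within a library was 34.4 to 34.7% over the ATRX KO libraries and 43.4 to 43.8% over those of ATRX WT, and no test was run on it. In ATRX WT the most abundant transcript, Psma6 at 300 RPKM, was followed by Psmb1, Psmb2, Psmb7 and Psmb4 between 218 and 233 RPKM, while in ATRX KO Psmb1 at 238 and Psmb4 at 223 RPKM led and Psma6 stood at 191. Within the alpha ring the coefficient was 35.8 to 37.1% for ATRX KO and 51.7 to 53.1% for ATRX WT. Psma6 was the highest alpha transcript of each line, and no coefficient without it was computed for the ring or for the 31. Among the non-ATPases it was the other way round, 28.2 to 30.7% for ATRX KO and 21 to 21.8% for ATRX WT. The ATPases overlapped, at 15.5 to 20.5% and 17.4 to 18.7%. The beta ring gave 37.7 to 40.1% for ATRX KO and 42.8 to 43.7% for ATRX WT, but 25.5 to 28.7% and 24.1 to 24.7% with Psmb5 left out. The order of mean levels in the lines had a rank correlation of 0.765 over the 31 genes, given as a description across genes that share the same libraries.

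Summed over all 31, obligate subunits reached 4110 ± 86.8 RPKM in ATRX KO against 4220 ± 24.8 in ATRX WT (SD, n = 3 each), or 97.5%, and 85% under total-read scaling. The 17 regulatory subunits amounted to 98.8, 101 and 101% of the 14 core subunits in the ATRX KO libraries and, in those of ATRX WT, to 83.6, 83.9 and 83%. The ratio of regulatory particle to core transcripts was 1.2 times as high in ATRX KO, without overlap (exact permutation test, two-sided, p = 0.1, adjusted p = 0.111). Psmb5 amounted to 35.9, 38 and 35.1% of Psmb6 in ATRX KO and 18.7, 17.9 and 19.2% in ATRX WT, a ratio chosen after the values were seen (exact permutation p = 0.1, adjusted p = 0.111).

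Psmg1 and Psmg3 led the assembly factors, which help the rings form and are not part of the finished complex. Of the 8, Psmg1, Psmg3 and Pomp rose, Psmd5 and Psmd10 fell and Psmd9, Psmg2 and Psmg4 did not pass (median log2 difference 0.08). Among all tested genes 43.6% rose and 45.9% fell. Under total-read scaling 2 of the 8 rose and 4 fell, and after quantile normalization again 2 and 4. Psmg1, which pairs with PSMG2 to nucleate the alpha ring, was at 37.9, 35 and 34.4 RPKM in ATRX KO and 19.7, 18.7 and 18.9 in ATRX WT. It rose by 0.90 (SE 0.043, limma adjusted p = 6.1e-08). Its partner Psmg2 stood at 31.9 RPKM in both lines (limma adjusted p = 0.98). The transcripts of this heterodimer were thus 19.1 against 31.9 RPKM in ATRX WT and 35.8 against 31.9 RPKM in ATRX KO. Psmg2 was lower under total-read scaling (log2 difference -0.20, limma adjusted p = 0.0025) and after quantile normalization (-0.11, adjusted p = 0.036).

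Psmg3, which pairs with PSMG4, was at 43.3, 44.4 and 43.6 RPKM in ATRX KO and 27.4, 28.4 and 28.3 in ATRX WT. It rose by 0.64 (SE 0.028, limma adjusted p = 3.6e-08), while its partner Psmg4 was at 27.3 against 26.7 RPKM (log2 difference 0.03, adjusted p = 0.55). With the authors' library sizes, 1 transcript of each heterodimer therefore rose and the other did not pass the test. Psmg4 was lower under total-read scaling (-0.16, limma adjusted p = 0.0098) and did not pass after quantile normalization. Pomp, which brings beta subunits onto the alpha ring, was at 190, 185 and 180 RPKM in ATRX KO and 171, 166 and 166 in ATRX WT. It was higher by 0.14 (SE 0.029, limma adjusted p = 0.0018) with the authors' library sizes, but by -0.06 (adjusted p = 0.085) under total-read scaling and by -0.15 (adjusted p = 0.0008) after quantile normalization.

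Psmd10, the 19S chaperone also called gankyrin, was at 14.1, 14.2 and 12.7 RPKM in ATRX KO and 16.3, 17 and 15.4 in ATRX WT. It fell by 0.25 (SE 0.055, limma adjusted p = 0.0023), whereas 5 of its 6 expressed neighbours on chromosome X rose and none fell, with a median log2 difference of 0.82. Psmd5, a 19S base chaperone, was at 30.6, 30.9 and 31.3 RPKM in ATRX KO and 34.5, 33.4 and 32.2 in ATRX WT, and fell by 0.11 (SE 0.032, limma adjusted p = 0.01). Psmd9, a further base chaperone, averaged 18.1 against 16.5 RPKM and did not pass (log2 difference 0.13, limma adjusted p = 0.075), but was higher without ATRX KO replicate 2 (0.18, adjusted p = 0.019). Pomp and Psmg1 to Psmg4 together amounted to 15.7, 16 and 15.5% of the core subunits in ATRX KO and 12, 11.8 and 11.8% in ATRX WT, 1.32 times as high (exact permutation p = 0.1, adjusted p = 0.111).

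Psme1 led the activators, caps that open the core without ATP. It encodes the PA28 alpha subunit, an interferon-inducible partner of PSME2, and was at 84.1, 86.5 and 82.1 RPKM in ATRX KO and 42.2, 41.3 and 40.3 RPKM in ATRX WT. The lowest ATRX KO library was far above the highest ATRX WT library. The means were 84.2 ± 2.19 and 41.3 ± 0.965 RPKM (SD, n = 3 each), a log2 difference of 1.03 (SE 0.031, limma adjusted p = 2.9e-09), and Psme1 shares 14 exonic bases with Emc9 on the other strand. Psme2, the PA28 beta subunit, was at 57.7, 67.6 and 62.6 RPKM in ATRX KO and 48.4, 48.2 and 45.1 in ATRX WT, and rose by 0.40 (SE 0.056, limma adjusted p = 0.00012). Both genes lie on chromosome 14, Psme1 (ENSMUSG00000022216.17) from 55578123 to 55581529 and Psme2 (ENSMUSG00000079197.10) from 55587441 to 55591113 in GRCm38.

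The promoter of Psme1, the member with the largest rise after Nfe2l1, is shown with a core of interferon response elements (GAAA, any 2 bases, GAAA) in capitals as they read on the reverse strand. It is chr14:55578244-55578543 on the plus strand (RefSeq, GRCm38.p6), and the match starts 9 bases after the gene's start in RefSeq. This whole window lies inside the GENCODE span of Psme1 given above, which begins further upstream, at 55578123.
Psme1: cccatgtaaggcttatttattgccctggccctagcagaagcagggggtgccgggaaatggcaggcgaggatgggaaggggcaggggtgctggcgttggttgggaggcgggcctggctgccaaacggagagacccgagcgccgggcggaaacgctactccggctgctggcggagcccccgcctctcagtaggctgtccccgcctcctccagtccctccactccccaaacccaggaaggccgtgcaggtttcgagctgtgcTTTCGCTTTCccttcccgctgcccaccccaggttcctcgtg
This motif was searched after the values were seen, and was in 5 of 41 member promoters (12.2%) against 3.61% of the genes of the deposited table: Psmb3, Psmd4, Psmd9, Psme1 and Psmg4. Of these 5, only Psme1 and Psmd4 rose with the authors' library sizes, and Psmd4 did not pass with either other scaling. The letters TTCNNNGAA of the gamma-activated site, bound by STAT factors and also searched afterwards, gave a match in 2 of 41 (4.88%), Psmd2 and Psmg1, against 8.27%.

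Psme4, the PA200 cap linked to histone degradation, was at 26.6, 29.3 and 29.1 RPKM in ATRX KO and 36.4, 36.9 and 36.2 in ATRX WT. Unlike the other caps it fell, by 0.36 (SE 0.041, limma adjusted p = 2.5e-05). Psme3, the nuclear PA28 gamma cap, averaged 99.7 against 83.3 RPKM and was higher by 0.26 (limma adjusted p = 7.1e-06), a call lost after quantile normalization. Psmf1, an inhibitor of the core, was at 9.06, 8.69 and 8.66 RPKM in ATRX KO and 10.4, 9.99 and 10.2 in ATRX WT, and fell by 0.21 (SE 0.04, limma adjusted p = 0.001).

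Set against the alpha ring that the caps bind, the activators moved in the same directions. Psme1 and Psme2 together amounted to 15.3, 17.3 and 15.8% of the alpha ring in ATRX KO and 8.55, 8.48 and 8.11% in ATRX WT, 1.93 times as high. Psme3 amounted to 10.6, 11.2 and 11% against 7.92, 7.92 and 7.82%, 1.39 times as high, and Psme4 to 2.87, 3.3 and 3.18% against 3.43, 3.49 and 3.43%, or 0.902 times. None of these 3 ratios overlapped between the groups (exact permutation test, two-sided, p = 0.1 each, adjusted p = 0.111).

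**Figure D4:**
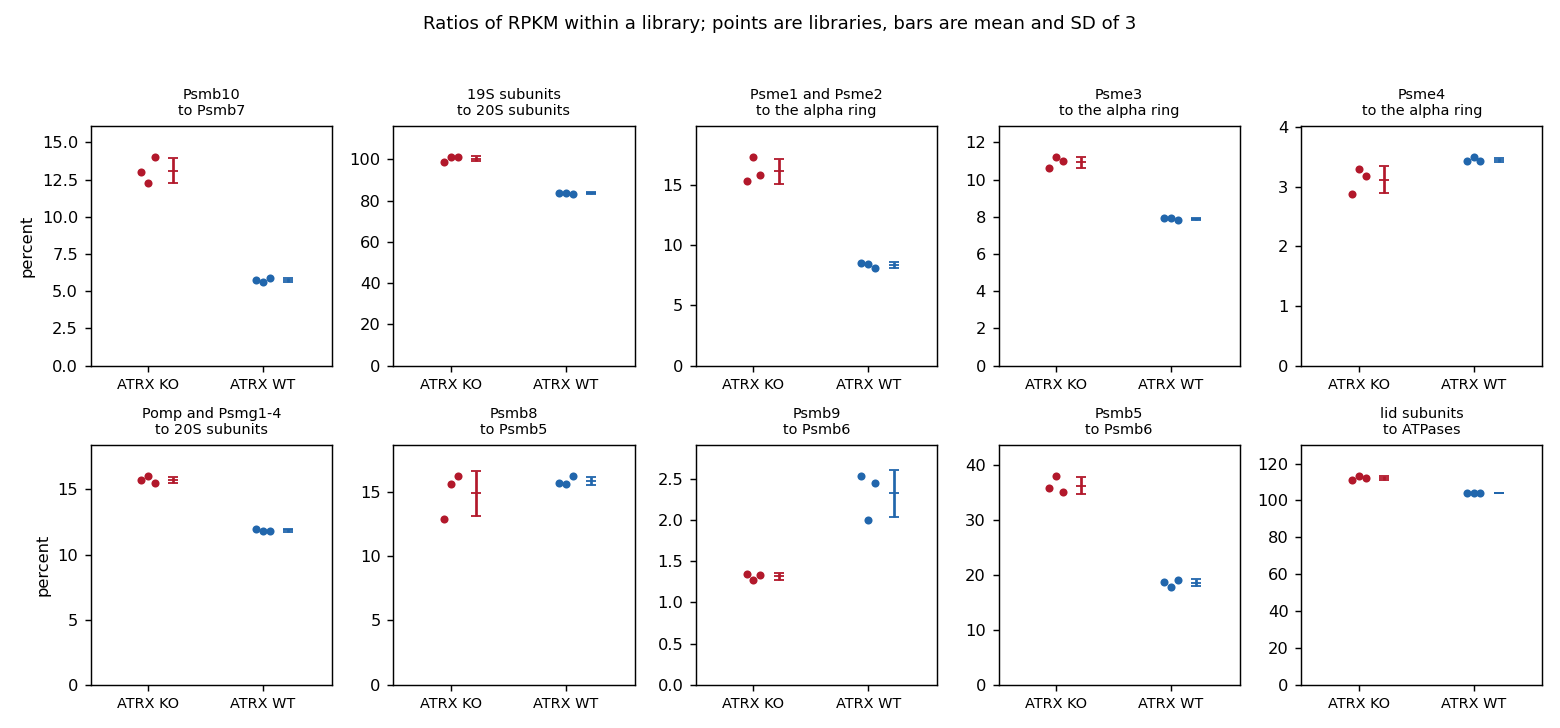
Ratios of RPKM within a library, in percent, each panel with its own axis from 0. Points are libraries and bars are the mean and SD of 3. The groups do not overlap in 9 of 10 panels, and overlap for Psmb8 to Psmb5. Psmb8 to Psmb5, Psmb9 to Psmb6, Psmb5 to Psmb6 and lid to ATPases were chosen after the values were seen.

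The member with the largest difference is not a proteasome gene. Psmc3ip, which matches the symbol rule but encodes a partner of the meiotic recombinase DMC1, was at 19.3, 18.6 and 17.7 RPKM in ATRX KO and 47.2, 47 and 47 in ATRX WT. It fell by 1.34 (SE 0.036, limma adjusted p = 1.5e-09), to 39.4% of ATRX WT, and shares 385 exonic bases with Mlx on the opposite strand. Psme2b, a retrocopy of Psme2, had 26 to 50 reads a library and did not pass (log2 difference 0.34, limma adjusted p = 0.13), and its reads may belong in part to Psme2.

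Among genes that process or partner NFE2L1, most rose. Of 16 listed genes 15 were tested, and 11 rose, 3 fell and Hcfc1 did not pass (median log2 difference 0.56), where 43.6% of all tested genes rose and 45.9% fell. Mafk, a small MAF protein that binds DNA together with NFE2L1 or NFE2L2, was at 30.3, 26.1 and 28 RPKM in ATRX KO and 3.7, 3.29 and 3.68 in ATRX WT. It rose by 2.98 (SE 0.068, limma adjusted p = 5.6e-10). Ddi2, the protease that cuts NFE2L1 free, was at 13.3, 12.1 and 12.2 RPKM in ATRX KO and 2.52, 2.5 and 2.48 in ATRX WT, and rose by 2.32 (SE 0.054, limma adjusted p = 6.2e-10). Of the 15 expressed genes within 2.5 Mb of Ddi2 on chromosome 4, 14 also rose and none fell, with a median log2 difference of 1.45, and the part of that neighbourhood was not tested.

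Btrc, an F-box protein that targets NFE2L1 for degradation, went the other way, at 4.25 ± 0.0301 RPKM in ATRX KO against 12.4 ± 0.129 in ATRX WT (SD, n = 3 each). It fell by 1.54 (SE 0.041, limma adjusted p = 1.4e-09), and Keap1, the adaptor that marks NFE2L2 for degradation, fell by 0.35 (limma adjusted p = 8.9e-05). Bach1, Nfe2l2 and Ngly1, named after their values were seen, rose as well. Bach1 rose more than the other genes named so, by 1.66 (7.77 ± 0.0681 against 2.45 ± 0.0728 RPKM, limma adjusted p = 4.1e-09). Nfe2l2, the relative of NFE2L1 that answers oxidative stress, was at 127 ± 5.51 against 55.7 ± 0.392 RPKM (log2 difference 1.19, limma adjusted p = 2.4e-09), and Ngly1, the enzyme that removes sugars from NFE2L1, at 9.82 ± 0.672 against 6.19 ± 0.0876 RPKM (0.66, adjusted p = 3.5e-06).

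Proteins that bind or modify the proteasome split about evenly, as did all tested genes, of which 43.6% rose and 45.9% fell. Of 12 listed genes 11 were tested, 4 rose and 5 fell (median log2 difference 0.02). Zfand2a, a stress-induced proteasome-binding protein, averaged 30.1 ± 2.12 against 7.44 ± 0.246 RPKM and rose by 2.02 (limma adjusted p = 1.5e-09). AI314180, the older symbol of the proteasome scaffold Ecpas, rose by 0.82 (50.8 against 28.7 RPKM, limma adjusted p = 1.6e-07). The ubiquitin ligase Ube3a fell by 0.34 (limma adjusted p = 0.00034) and the proteasome-bound thioredoxin Txnl1 by 0.30 (adjusted p = 8.6e-06).

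Of 4 ubiquitin and E1 genes, Uba6 and Rps27a rose, Uba1 fell and Ubb did not pass (median log2 difference 0.33), where 43.6% of all tested genes rose and 45.9% fell. Under either other scaling, and without ATRX WT replicate 2, 2 fell, Ubb being added. Rps27a, which encodes ubiquitin fused to a ribosomal protein, rose by 0.79 (855 against 494 RPKM, limma adjusted p = 3.1e-08). The ubiquitin-activating enzymes moved apart, with Uba6 higher by 0.84 (limma adjusted p = 1.9e-07) and Uba1 lower by a log2 difference of -0.27 (adjusted p = 2e-05).

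Of 16 listed shuttles and segregase genes, which carry substrates to the proteasome, 15 were tested, 7 rose and 4 fell (median log2 difference 0.07). The shares of all tested genes that rose and fell were 43.6% and 45.9%. The number of listed genes that fell was 8 under total-read scaling, and 2 without ATRX KO replicate 3, ATRX WT replicate 1 or ATRX WT replicate 3. Sqstm1, the p62 receptor that also serves autophagy, averaged 583 ± 31.4 against 185 ± 2.82 RPKM and rose by 1.65 (limma adjusted p = 9.4e-10). Ddi2 is on this list too, and its rise of 2.32 was the largest there. Ufd1l, a VCP cofactor, fell by 0.61 (28.7 against 43.7 RPKM, limma adjusted p = 2e-08) and the shuttle Ubqln2 by 0.44 (adjusted p = 7.4e-07).

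Of the 10 genes of the immunoproteasome and peptide supply, 8 rose and 2, Psmb9 and Tap2, fell (median log2 difference 0.91). Among all tested genes 43.6% rose and 45.9% fell. Tapbp, which loads peptides onto MHC class I, averaged 48.3 ± 1.63 against 7.65 ± 0.293 RPKM and rose by 2.66 (limma adjusted p = 6.6e-11). Irf1, an interferon-response factor that drives immune subunit genes, rose by 1.89 (18.2 against 4.91 RPKM, limma adjusted p = 1.2e-09). Tap2, a peptide transporter subunit, fell by 0.71 (limma adjusted p = 2.6e-05).

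**Figure D5:**
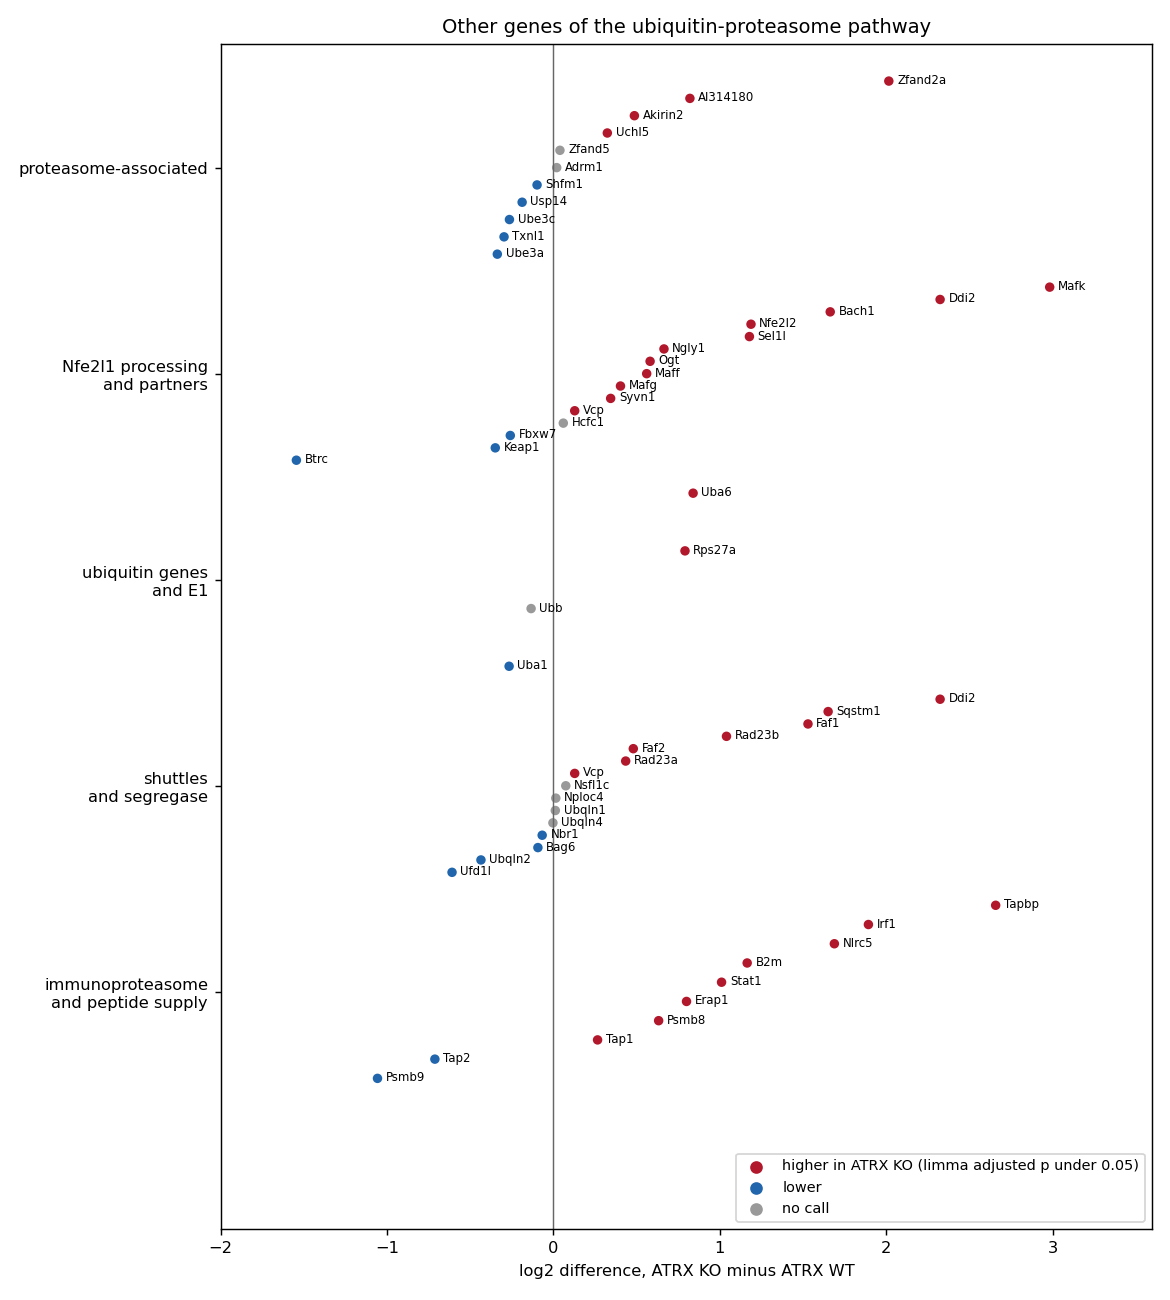
Log2 difference, ATRX KO minus ATRX WT, of the tested genes of 5 lists around the proteasome, with the authors' library sizes. Red genes rose, blue genes fell and grey genes did not pass (limma adjusted p under 0.05). Mafk, Tapbp and Ddi2 lie furthest to the right and Btrc furthest to the left, while the proteasome-associated list is spread around 0. Of the genes shown, those near 0 depend on the scaling: shuttles and segregase genes that fell number 4 here and 8 under total-read scaling.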

How the data were processed

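RNA from 6 libraries was sequenced as paired-end 42-nt reads from a stranded mRNA kit, per the labels. The deposited table holds log2 RPKM for 13069 genes and 6 libraries, made by the authors, and the submitters' processing notes name FastQC, Trim Galore, STAR 2.5.3a, HTSeq 0.11.2, edgeR 3.20.9 and the genome builds mm9 and mm10, with no role stated. The filter on low genes and the strand setting are not given in the sources used here. Reads recovered from the whole-read steps of the deposited log2 values were whole for 100% of genes (tolerance 0.0001 reads) and were used for depths and for rescaling.

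A gene was tested if 3 or more of its 6 log2 RPKM values were 0 or higher (12201 genes, leaving out 868). All 48 members passed, 47 of them in all 6 libraries and Psme2b in fewer. The test was limma 3.58.1 (R 4.3.3) on the deposited log2 values, two-sided, with a trended empirical Bayes variance (4 residual plus 4.2 prior degrees of freedom). P-values were adjusted by the Benjamini-Hochberg method over every gene tested. Fold changes are on the deposited log2 scale, which includes the authors' prior count. RPKM is 2 to the power of these values, with mean and SD over 3 libraries. The design text calls the libraries biological replicates of 1 line per genotype, so p-values measure the spread between libraries, which may be technical. Ratios were compared by exact permutation tests. SciPy 1.17.1 was among the software used.

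Per-library values were given for Nfe2l1, Pomp, Psmb10, Psme1, Psme2, for up to 2 members of each role with the largest change in each direction, and for Psmc3ip. Of the other lists the 2 largest changes in each direction were named, and Psmb3, Psmb7, Psmb8, Psmc5, Psmd1, Psmd3, Psmd9, Psmd14, Psme3, Psmg2 and Psmg4 were singled out after their values were seen. The members, lists and rules were chosen with earlier results of these data known. Gene positions are from GENCODE M21 (GRCm38) and promoters from RefSeq. Psma8, Psmb11 and Psme3ip1 were not analysed here. The test and the recovery of reads were tested on simulated data. 2 genes of the ubiquitin list are not reported here.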

Additional observations from a re-analysis of the deposited data

How the results depend on the processing

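Members that rose or fell numbered 18 and 20, and 18 to 19 and 18 to 22 when single libraries were left out. Under total-read scaling 5 members rose by at least log2 0.5, 7 fell by as much and 0 rose by at least 1 (10, 3 and 2 with the authors' sizes), the median over members was -0.19, and Pomp stood at -0.0585 and Psmc6 at -0.0805, both reversed. After quantile normalization 9 fell by at least 0.5 and 1 rose by at least 1, the median was -0.23, and Pomp (-0.15), Psma7 (-0.0289), Psmc6 (-0.16) and Psmd4 (-0.01) were reversed. Both settings change the scaling of every library by construction. Of shuttles and segregase genes 4 fell, 8 under total-read scaling, 9 after quantile normalization and 2 to 3 with a library left out (2 without ATRX KO replicate 3, ATRX WT replicate 1 or ATRX WT replicate 3). Of ubiquitin and E1 genes 1 fell, but 2 under total-read scaling, after quantile normalization and with the replicate block, and 1 to 2 with a library left out (2 without ATRX WT replicate 2). Among members, leave-one-out lost the call of Psma5 without ATRX KO replicate 2, ATRX WT replicate 2 or ATRX WT replicate 3, of Psma3 without ATRX WT replicate 2, and of Psmc4 without ATRX WT replicate 3, and added Psmb3 and Psmc5 as lower without ATRX KO replicate 1 and Psmd9 as higher without ATRX KO replicate 2. Of the members that fell, 17 of 20 fell under every setting run, and 11 of 18 rose under every one. No filter and a prior count of 0.5 left the counts at 18 and 20. All 6 planned ratios kept their direction under reads per kilobase, medians in place of sums and each library left out. With the replicate number as a block, 19 rose and 20 fell, Psmd9 being added, but same-numbered libraries did not deviate together (correlations -0.185, 0.245 and -0.128), so the numbers do not pair them. The planned count-based tests on recovered reads were not run, since the deposited unit is log2 RPKM.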

Other observations

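Lid subunits of the 19S particle other than its scaffold (Psmd3, Psmd6, Psmd7, Psmd8, Psmd11, Psmd12, Psmd13 and Psmd14) amounted to 111, 113 and 112% of the summed 6 ATPases in ATRX KO and 104% in each ATRX WT library, 1.08 times as high (exact permutation test, two-sided, p = 0.1, adjusted p = 0.111), a ratio chosen after the values were seen. Faf1, a VCP cofactor on chromosome 4, rose by 1.53 on the log2 scale, and 18 of its 20 expressed neighbours within 2.5 Mb rose and 1 fell, with a median log2 difference of 1.55. Mafk, by contrast, rose by 2.98 among 36 expressed neighbours whose median was 0.03.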
